A study of Homo sapiens with 18 samples.

Results

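The genes described here are 35 components of the endoplasmic reticulum (ER) folding machinery and of the unfolded protein response, chosen by name for their roles, with earlier results of these data known. They comprised 10 chaperones and cochaperones, 4 enzymes of disulphide folding, the 3 stress sensors with the transcription factor XBP1, 6 components of ER-associated degradation (ERAD), 9 components of translocation and early processing, and 2 coat proteins of ER exit. All 35 were found among the 63677 genes of the count table, and all 35 had enough counts to be among the 16678 genes tested.

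The cells were THP-1, an established human acute monocytic leukaemia line that grows in suspension. Cells designated KD received 25 nM of an siRNA against TRAFD1, SCR cells received 25 nM of a non-targeting siRNA, and WT cells received none. The treatment notes state that WT cells were given transfection reagent alone, whereas another label calls them untreated. At 72 h after transfection the cells were kept for 4 h in medium (unstimulated) or in medium with 10 ng/ml of Escherichia coli lipopolysaccharide (LPS), which gave 6 groups of 3 libraries. A single siRNA to TRAFD1 was used in a single cell line, and the labels do not say whether the triplicates were separate cultures, so p-values measure only the spread between these libraries, which may be technical.

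Proteins that enter the secretory pathway are threaded through the SEC61 channel, fold with the help of HSPA5 (BiP), HSP90B1 (GRP94) and protein disulphide isomerases, and are returned to the cytosol for degradation when they fail. Unfolded protein in the ER lumen is sensed by IRE1 (the product of ERN1), PERK (EIF2AK3) and ATF6: IRE1 splices the XBP1 mRNA, PERK slows translation and raises ATF4, and ATF6 is cut to release a transcription factor. Toll-like receptor signalling in myeloid cells is known to engage IRE1 and XBP1 while restraining the ATF4 and CHOP (DDIT3) arm. The library kit reads tags near the 3′ end of transcripts, and such counts do not tell spliced from unspliced XBP1 mRNA and do not report on sensor proteins.

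The promoters of several of these genes carry the ER stress response element (ERSE: CCAAT, any 9 bases, CCACG) or its compact form ERSE-II (ATTGG, any 1 base, CCACG), which are bound by ATF6 and XBP1 together with NF-Y. RefSeq promoter windows of 300 bases, from 250 before to 50 after the start on GRCh38.p14, were at hand for 33 of the 35 genes (not for SPCS1 and SEC24D). Searched on both strands, ERSE was found in 5 of these 33 genes (15.2%: HSPA5, HSP90B1, CRELD2, PDIA6 and XBP1) against 0.0916% of 27305 genes with a window, and ERSE-II in 3 (9.09%: HERPUD1, HYOU1 and SDF2L1) against 0.0696%. The core TGACGTGG was found in DNAJC10, HYOU1 and SSR3, against 0.927% of all genes with a window, and in HYOU1 it overlapped an ERSE-II. Windows of 5 genes are printed because these genes, which hold ERSE or ERSE-II, had different calls with LPS. In WT cells SDF2L1 and HYOU1 rose, XBP1 and HERPUD1 fell, and HSPA5 did not pass the test. Differences between genes were not tested. Sequences read in the direction of the gene, and capitals mark the bases of ERSE or ERSE-II (in HYOU1 also the core) on either strand.
HSPA5, chr9:125241294-125241593, minus strand, ERSE in capitals: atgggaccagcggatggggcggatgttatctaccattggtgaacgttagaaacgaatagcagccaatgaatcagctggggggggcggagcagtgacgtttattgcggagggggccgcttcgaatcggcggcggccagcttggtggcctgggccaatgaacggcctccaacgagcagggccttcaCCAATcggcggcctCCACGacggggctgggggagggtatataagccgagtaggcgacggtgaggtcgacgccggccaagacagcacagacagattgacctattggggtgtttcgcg
XBP1, chr22:28800520-28800819, minus strand, ERSE in capitals: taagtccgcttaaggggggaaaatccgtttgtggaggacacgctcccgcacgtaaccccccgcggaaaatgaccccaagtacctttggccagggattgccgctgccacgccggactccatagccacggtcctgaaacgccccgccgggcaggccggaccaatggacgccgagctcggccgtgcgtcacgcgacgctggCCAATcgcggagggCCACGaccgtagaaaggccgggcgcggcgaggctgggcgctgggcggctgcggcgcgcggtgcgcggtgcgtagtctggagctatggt
HERPUD1, chr16:56931892-56932191, plus strand, ERSE-II in capitals: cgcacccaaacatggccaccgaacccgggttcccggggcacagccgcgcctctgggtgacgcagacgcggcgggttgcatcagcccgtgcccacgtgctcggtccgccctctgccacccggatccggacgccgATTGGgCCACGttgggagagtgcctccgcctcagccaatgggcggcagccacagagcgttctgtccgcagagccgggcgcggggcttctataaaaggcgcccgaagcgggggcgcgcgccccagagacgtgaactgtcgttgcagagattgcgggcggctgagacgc
SDF2L1, chr22:21642052-21642351, plus strand, ERSE-II in capitals: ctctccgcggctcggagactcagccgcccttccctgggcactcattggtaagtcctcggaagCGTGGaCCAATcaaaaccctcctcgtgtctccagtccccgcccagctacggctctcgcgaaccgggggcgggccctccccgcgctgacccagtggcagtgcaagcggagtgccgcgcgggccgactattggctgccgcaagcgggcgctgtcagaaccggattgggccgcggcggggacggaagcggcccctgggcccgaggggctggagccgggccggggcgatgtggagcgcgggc
HYOU1, chr11:119057156-119057455, minus strand, ERSE-II (and core) in capitals: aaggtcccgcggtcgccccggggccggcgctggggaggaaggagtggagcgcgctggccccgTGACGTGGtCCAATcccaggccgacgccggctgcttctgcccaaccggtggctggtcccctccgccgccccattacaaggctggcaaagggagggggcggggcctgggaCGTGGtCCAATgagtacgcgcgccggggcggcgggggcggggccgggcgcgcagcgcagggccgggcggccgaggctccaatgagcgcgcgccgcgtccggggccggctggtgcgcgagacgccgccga
A match is a description of the letters and does not show binding in these cells.

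The libraries held 8206023 to 22344279 counts assigned to genes, and 0.798% to 0.957% of these fell in the 35 genes. Levels are given as CPM, counts scaled to a library of 1000000, after trimmed-mean scaling, and 3 counts corresponded to 0.134 to 0.366 CPM before that scaling. All 11 monocytic markers exceeded 1 CPM in at least 1 library (MPO ranged from 0.156 to 2.36 CPM), with a summed level of 1013 to 1333 CPM, whereas 3 markers each of T cells, B cells, epithelium, fibroblasts and erythroid cells summed to at most 4.28 CPM in any library. TRAFD1 was at 11.6, 5.37 and 9.02 CPM in unstimulated KD cells and at 26.8, 20.1 and 24.3 CPM in unstimulated SCR cells, without overlap (log2 fold change −1.45 ± 0.23 SE, edgeR adjusted p = 0.0277). With LPS it was at 15.8, 14.0 and 13.8 CPM in KD against 21.9, 27.5 and 18.7 CPM in SCR and 19.2, 20.3 and 11.6 CPM in WT, and neither difference passed the test (edgeR adjusted p = 0.262 and 0.563). Fewer cells of a type and less RNA per cell cannot be told apart in these bulk samples.

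The first question was how LPS changed the genes within each siRNA condition. SEL1L, the scaffold of the main ERAD ubiquitin ligase, and XBP1 fell in all 3 conditions. HERPUD1, an ERAD component induced by ER stress, fell in WT and SCR, SDF2L1 rose in WT and SCR, and the cochaperone DNAJC3 and the secreted ER factor MANF rose in SCR and KD. In WT 3 of the 35 genes rose and 5 fell, beside 14.3% of all genes called (7.01% higher and 7.26% lower). In SCR 5 rose and 4 fell, beside 17.2% of all genes called (8.64% higher and 8.56% lower). In KD 6 rose and 2 fell, beside 11.5% of all genes called (6.41% higher and 5.05% lower), and without KD unstimulated replicate 1 the number called in KD was 15, beside 18.3% of all genes in that fit. Across the conditions 2 of the genes were called in all 3, 4 in 2, 11 in 1 and 18 in none, and none was called in opposite directions. The same count was not made over all genes, so it is not known whether sharing was more or less frequent among the 35. The median log2 fold change of the 35 genes was −0.01 in WT, 0.18 in SCR and 0.21 in KD, against −0.03, −0.03 and −0.00 over all genes tested. The groups with and without LPS did not overlap for 14, 17 and 12 of the 35 genes (40.0%, 48.6% and 34.3%), beside 32.5%, 37.3% and 25.4% of all genes.

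**Figure D1:**
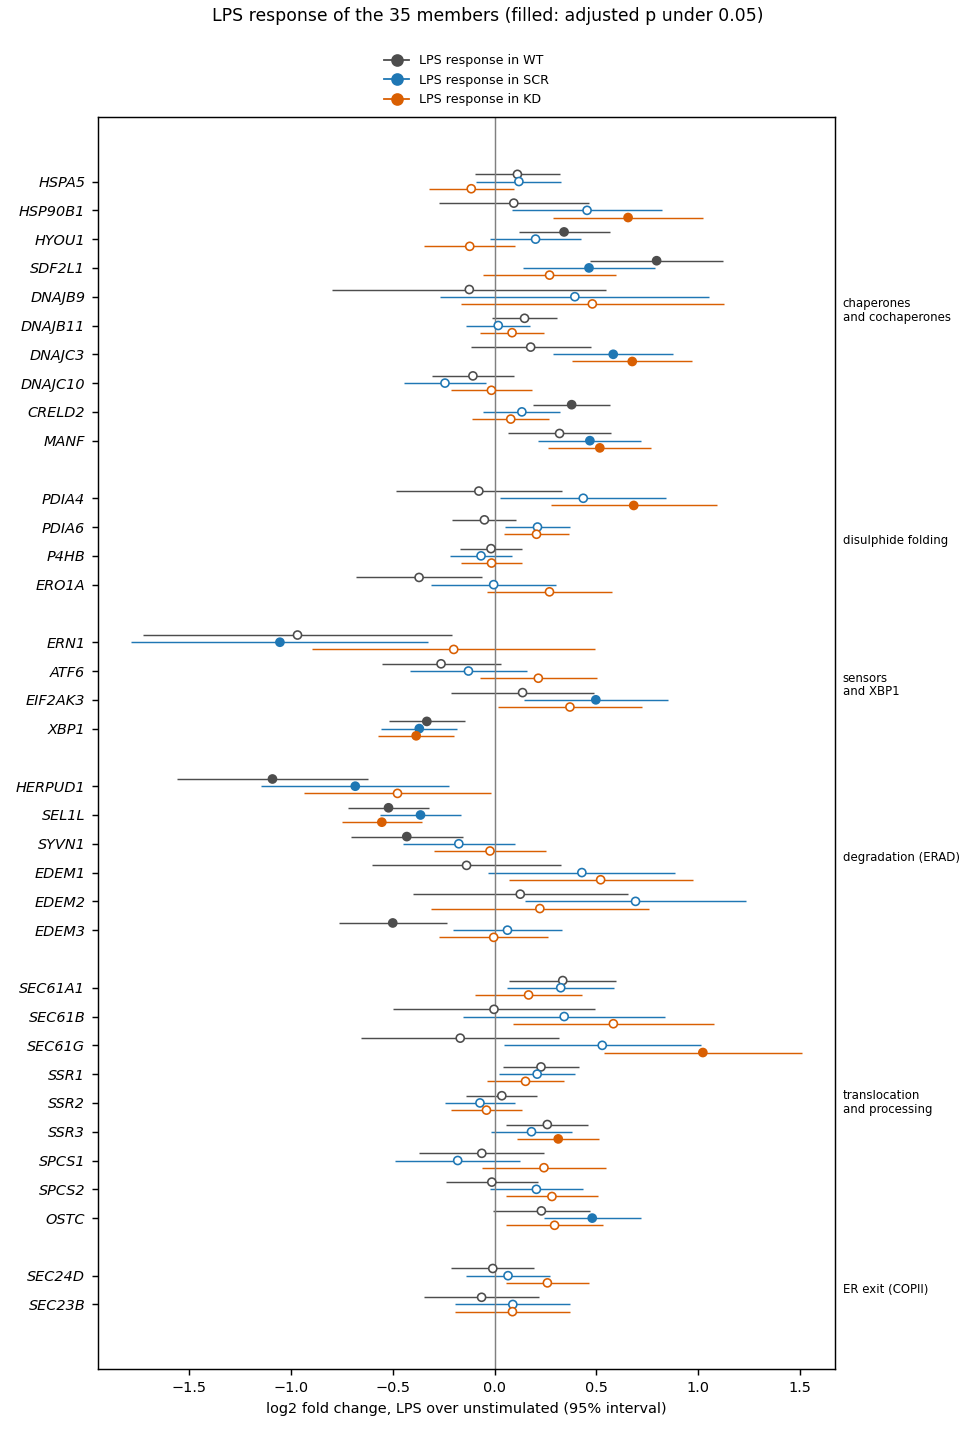
Log2 fold change with LPS (x axis, points with 95% intervals) of the 35 genes (y axis, grouped by role) in WT (grey), SCR (blue) and KD (orange), filled where the edgeR adjusted p was under 0.05. SEL1L and XBP1 are filled and left of 0 in all 3 conditions, while the filled chaperone points all lie right of 0.

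Among the 10 chaperones and cochaperones, 3 rose in each condition and none fell, and the genes that rose differed. HSPA5, the ER Hsp70, was at 2160, 2459 and 2546 CPM in unstimulated WT and at 2622, 2456 and 2666 CPM with LPS. These libraries overlapped, and the log2 fold change was 0.11 (95% interval −0.10 to 0.32), with 0.12 (−0.09 to 0.33) in SCR and −0.11 (−0.32 to 0.09) in KD. The main ER chaperone therefore passed the test in no condition (edgeR adjusted p = 0.528, 0.464 and 0.504), and the intervals leave room for changes of up to 0.33.

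SDF2L1, a luminal partner of ER DnaJ proteins, was at 115, 194 and 135 CPM in unstimulated WT and at 268, 244 and 256 CPM with LPS. Every WT library with LPS lay above every library without, a log2 fold change of 0.80 ± 0.16 (edgeR adjusted p = 0.00118). In SCR it went from 136, 174 and 142 CPM to 206, 186 and 231 CPM, again without overlap (0.46 ± 0.16, edgeR adjusted p = 0.0462). That call did not hold in 4 of the 6 fits with 1 SCR library left out, all but those without unstimulated replicate 2 or LPS replicate 5 (edgeR adjusted p from 0.104 to 0.174 in the 4). In KD, 147, 199 and 204 CPM became 230, 195 and 239 CPM, which overlapped and did not pass the test (0.27 ± 0.16, edgeR adjusted p = 0.285), and which passed after a correction for GC content (0.0138).

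The other 2 chaperone genes called in WT were CRELD2, a cysteine-rich ER protein induced by stress, and HYOU1, the ER Hsp110 that exchanges nucleotide on HSPA5. CRELD2 went from 87.2, 91.5 and 94.2 CPM to 116, 110 and 129 CPM in WT (0.38 ± 0.09, edgeR adjusted p = 0.00650), without overlap. Without WT LPS replicate 6 its edgeR adjusted p was 0.0554. HYOU1 went from 299.9, 388 and 343 CPM to 428, 442 and 435 CPM, also without overlap (0.34 ± 0.11, edgeR adjusted p = 0.0366), but 5 of the 6 fits that left out 1 WT library lost the call, all but that without unstimulated replicate 2 (edgeR adjusted p from 0.0788 to 0.183). Neither gene was called in SCR or KD.

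DNAJC3 (P58IPK), an HSPA5 cochaperone, was at 74.5, 64.4 and 88.9 CPM in unstimulated SCR and at 113, 122 and 107 CPM with LPS (0.58 ± 0.14, edgeR adjusted p = 0.00653). In KD it went from 90.2, 61.9 and 69.9 CPM to 114, 123 and 118 CPM (0.68 ± 0.14, edgeR adjusted p = 0.00309). Neither pair of groups overlapped. In WT 99.3, 78.1 and 82.1 CPM became 106, 106 and 81.5 CPM, with overlap and no call (0.18 ± 0.14, edgeR adjusted p = 0.469). WT LPS replicate 6 lay below its fellow replicates.

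MANF was at 118, 158 and 148 CPM in unstimulated SCR and at 185, 215 and 186 CPM with LPS (0.47 ± 0.12, edgeR adjusted p = 0.0103). In KD it went from 156, 123 and 135 CPM to 203, 205 and 184 CPM (0.52 ± 0.12, edgeR adjusted p = 0.00758). The groups did not overlap in either condition. The SCR call was lost without SCR unstimulated replicate 1 (edgeR adjusted p = 0.0782) and without SCR LPS replicate 5 (0.0557).

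HSP90B1, the ER Hsp90, was at 883, 552 and 544 CPM in unstimulated KD and at 1019, 1148 and 951 CPM with LPS (0.66 ± 0.18, edgeR adjusted p = 0.0195). The KD groups did not overlap, and the call did not hold in 3 of the 6 fits with 1 library left out, those without unstimulated replicate 2 (edgeR adjusted p = 0.0745), unstimulated replicate 3 (0.112) or LPS replicate 5 (0.0843). In SCR it went from 746, 725 and 825 CPM to 1084, 1187 and 874 CPM, without overlap, and fell short of the threshold (0.45 ± 0.18, edgeR adjusted p = 0.0833; DESeq2 adjusted p = 0.0499). In WT the groups overlapped, at 830, 583 and 586 CPM without LPS and 791, 806 and 538 CPM with it (0.09 ± 0.18, edgeR adjusted p = 0.789).

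DNAJB9 (ERdj4), a cochaperone of ERAD and a target of XBP1, varied widely between replicates. It was at 23.8, 16.8 and 14.1 CPM in unstimulated WT and 17.1, 22.9 and 9.99 CPM with LPS, at 21.1, 16.4 and 20.8 against 26.0, 32.1 and 18.7 CPM in SCR, and at 43.1, 14.1 and 19.2 against 36.3, 38.4 and 32.5 CPM in KD. The groups overlapped in all 3 conditions, and the log2 fold changes of −0.12, 0.39 and 0.48 did not pass the test (edgeR adjusted p = 0.855, 0.439 and 0.345). Without KD unstimulated replicate 1, the library at 43.1 CPM, the KD change was 1.10 with an edgeR adjusted p of 0.00601. DNAJB11 and DNAJC10, 2 further ER DnaJ proteins, were called in no condition.

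Among the 4 genes of disulphide folding, a single call was made. PDIA4 (ERp72), a disulphide isomerase, was at 178, 106 and 121 CPM in unstimulated KD and at 220, 233 and 199 CPM with LPS, without overlap (0.68 ± 0.20, edgeR adjusted p = 0.0272). It was no longer called in 4 of the 6 fits with 1 KD library left out, all but those without unstimulated replicate 1 or LPS replicate 6 (edgeR adjusted p from 0.0636 to 0.116). The isomerases PDIA6 and P4HB and the oxidase ERO1A were not called with LPS in any condition.

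**Figure D2:**
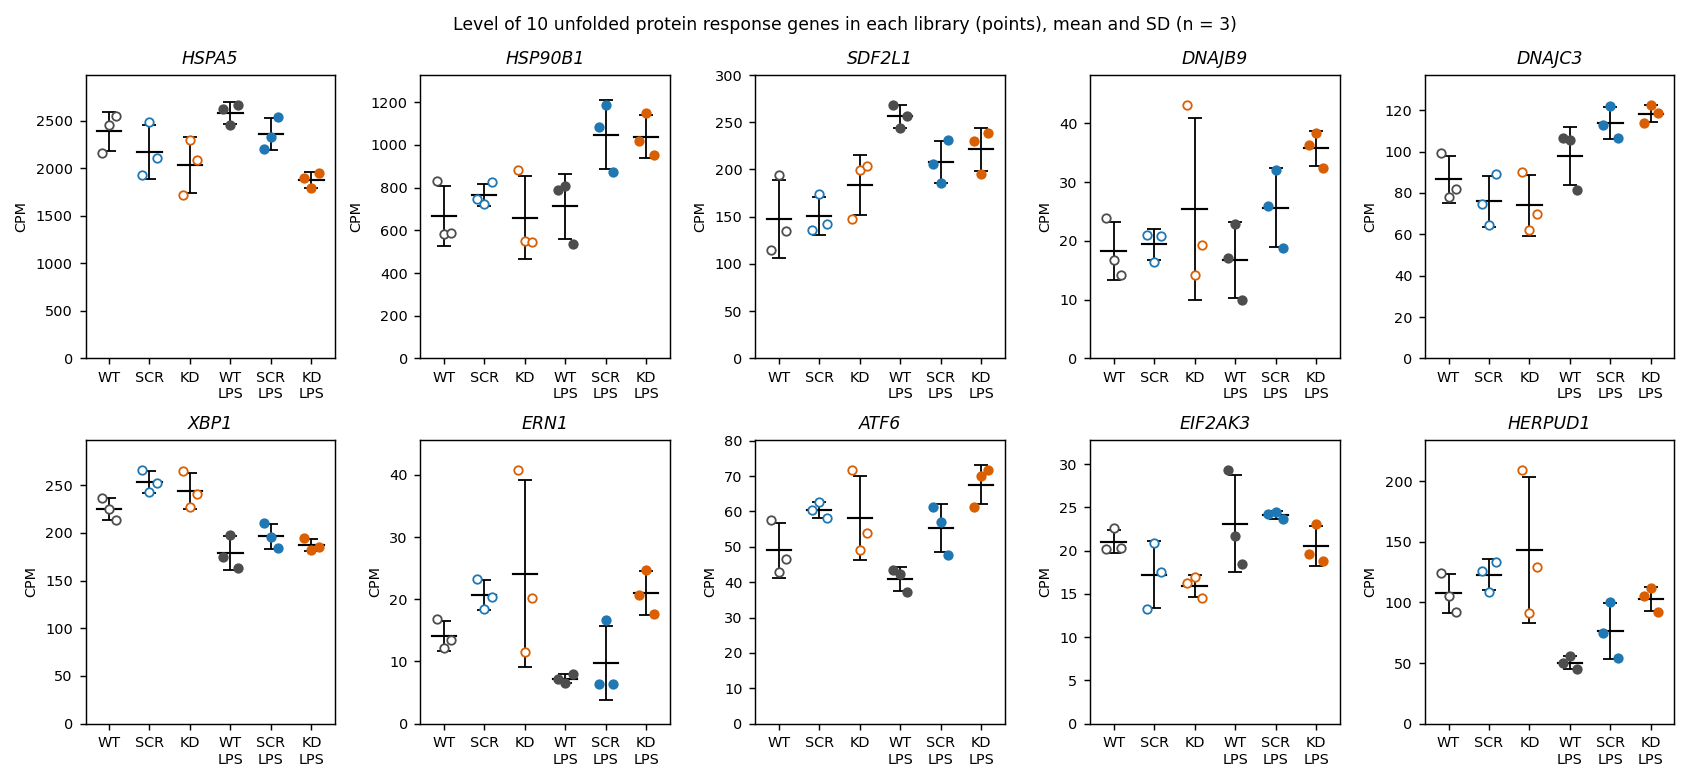
CPM (y axis, linear from 0) of 10 sensors, chaperones and targets of the unfolded protein response in the 6 groups (x axis), with each library as a point (open without LPS, filled with LPS) and the mean and SD of 3 libraries as bars. XBP1 is lower in every library with LPS than in any library of the same condition without it, whereas single libraries such as KD unstimulated replicate 1 (43.1 CPM for DNAJB9) stand apart for DNAJB9, ERN1 and HERPUD1.

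Of the sensors and XBP1, XBP1 moved in the same direction in all conditions. It was at 237, 225 and 214 CPM in unstimulated WT and at 175, 198 and 163 CPM with LPS (−0.33 ± 0.09, edgeR adjusted p = 0.0148). In SCR it went from 266, 242 and 253 CPM to 210, 195 and 184 CPM (−0.37 ± 0.09, edgeR adjusted p = 0.00646). In KD it went from 264, 227 and 241 CPM to 195, 182 and 185 CPM (−0.39 ± 0.09, edgeR adjusted p = 0.00712). All 9 libraries with LPS thus lay below all 9 without. The WT call was lost without WT unstimulated replicate 1 (edgeR adjusted p = 0.0678), WT LPS replicate 4 (0.0618) or WT LPS replicate 6 (0.0934), and the SCR and KD calls held in all fits that left out 1 library.

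ERN1, which encodes IRE1, was at 16.8, 12.2 and 13.4 CPM in unstimulated WT and at 7.20, 6.60 and 7.93 CPM with LPS. The groups did not overlap, and the change fell short of the threshold (−0.97 ± 0.36, edgeR adjusted p = 0.0841), although it passed without the filter on low counts (3.46e-05) and with only the groups compared in the fit (0.00331). In SCR it went from 23.3, 18.5 and 20.4 CPM to 6.30, 16.7 and 6.45 CPM (−1.05 ± 0.35, edgeR adjusted p = 0.0424), with LPS replicate 5 far above its fellows. That call was lost with DESeq2 (adjusted p = 0.0607) and in 5 of the 6 fits that left out 1 library, all but that without SCR LPS replicate 5 (edgeR adjusted p from 0.0592 to 0.180). In KD the groups overlapped, at 40.8, 11.5 and 20.1 CPM against 20.7, 24.8 and 17.7 CPM (−0.20 ± 0.33, edgeR adjusted p = 0.750), and without KD unstimulated replicate 1 the change was 0.41.

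EIF2AK3, which encodes PERK, was at 13.2, 20.9 and 17.5 CPM in unstimulated SCR and at 24.2, 24.5 and 23.7 CPM with LPS (0.50 ± 0.17, edgeR adjusted p = 0.0478). These groups did not overlap, but 5 of the 6 fits that left out 1 SCR library lost the call, all but that without unstimulated replicate 2 (edgeR adjusted p from 0.0926 to 0.253), as did a correction for GC content (0.0810). In WT it was at 20.2, 22.6 and 20.3 against 29.3, 21.6 and 18.4 CPM, and in KD at 16.2, 16.9 and 14.5 against 19.7, 23.1 and 18.8 CPM, and neither change passed (edgeR adjusted p = 0.665 and 0.171). ATF6 was at 57.6, 42.8 and 46.7 against 43.4, 42.2 and 37.1 CPM in WT, at 60.3, 62.8 and 58.1 against 61.3, 56.9 and 47.8 CPM in SCR, and at 71.6, 49.2 and 53.9 against 61.2, 70 and 71.6 CPM in KD. It overlapped between states in every condition and was not called (edgeR adjusted p = 0.241, 0.581 and 0.340). Without KD unstimulated replicate 1, at 71.6 CPM, its KD change was 0.39 with an edgeR adjusted p of 0.0445.

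The calls in ERAD genes were all downward. SEL1L was at 120, 105 and 130 CPM in unstimulated WT and at 80.6, 83.8 and 82.8 CPM with LPS (−0.52 ± 0.09, edgeR adjusted p = 0.000503). In SCR it went from 102, 114 and 116 CPM to 86.4, 86.2 and 86.1 CPM (−0.36 ± 0.09, edgeR adjusted p = 0.0103). In KD it went from 111, 110 and 119 CPM to 80.0, 70.2 and 80.9 CPM (−0.55 ± 0.09, edgeR adjusted p = 0.000448). The 9 libraries with LPS lay below the 9 without, and all 3 calls held in all fits that left out 1 library.

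HERPUD1 was at 125, 106 and 91.9 CPM in unstimulated WT and at 50.1, 55.6 and 45.4 CPM with LPS, a drop to 0.469 of the unstimulated level (−1.09 ± 0.23, edgeR adjusted p = 0.00181). In SCR it went from 126, 109 and 134 CPM to 74.8, 100 and 54.1 CPM (−0.68 ± 0.22, edgeR adjusted p = 0.0376). Neither pair of groups overlapped, and the SCR call did not hold in 4 of the 6 fits with 1 library left out, all but those without unstimulated replicate 2 or LPS replicate 5 (edgeR adjusted p from 0.103 to 0.185). In KD 209, 91.5 and 129 CPM became 105, 112 and 92.1 CPM, which overlapped (−0.48 ± 0.22, edgeR adjusted p = 0.173). Unstimulated KD replicate 1 held the highest level of the 18 libraries, and without KD unstimulated replicate 2, the lowest of its group, the KD change was −0.71 with an edgeR adjusted p of 0.0249.

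SYVN1 (HRD1), the ubiquitin ligase held by SEL1L, and EDEM3, a mannosidase-like protein that marks glycoproteins for ERAD, fell in WT and were not called in SCR or KD. EDEM3 went from 131, 110 and 109 CPM to 91.9, 88.8 and 67.3 CPM (−0.50 ± 0.13, edgeR adjusted p = 0.0100), without overlap. Its call was lost without WT unstimulated replicate 1 (edgeR adjusted p = 0.0635) or WT LPS replicate 6 (0.0732). SYVN1 went from 57.7, 55.1 and 50.6 CPM to 43.9, 38.8 and 38.5 CPM (−0.43 ± 0.13, edgeR adjusted p = 0.0319), also without overlap. That call was lost in 4 of the 6 fits, all but those without unstimulated replicate 3 or LPS replicate 4 (edgeR adjusted p from 0.0692 to 0.110). If the 500 bases counted are those at the 3′ end, the window of SYVN1 overlaps FAU on the same strand, a gene with 2801% as many counts, and reads could be split between them. EDEM1 and EDEM2, relatives of EDEM3, were not called with LPS.

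Of the 9 genes of translocation and processing, SEC61G, the small gamma subunit of the SEC61 channel, had the largest change. It was at 208, 114 and 130 CPM in unstimulated KD and at 310, 352 and 257 CPM with LPS, without overlap (1.02 ± 0.23, edgeR adjusted p = 0.00617). The groups overlapped in SCR, at 131, 148 and 161 against 203, 279 and 152 CPM, and in WT, at 177, 159 and 146 against 181, 157 and 89.7 CPM. Neither of these was called.

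OSTC, a subunit of the oligosaccharyltransferase, went from 76.8, 112 and 106 CPM to 135, 138 and 136 CPM in SCR, without overlap (0.48 ± 0.11, edgeR adjusted p = 0.00584). SSR3, the gamma subunit of the translocon-associated complex TRAP, went from 411, 380 and 370 CPM to 483, 497 and 461 CPM in KD (0.31 ± 0.10, edgeR adjusted p = 0.0397). These did not overlap either, and the SSR3 call was lost with only the groups compared in the fit (edgeR adjusted p = 0.0797) and in 5 of the 6 fits that left out 1 KD library, all but that without unstimulated replicate 1 (0.0634 to 0.144). SEC61A1 and SEC61B (channel subunits), SSR1 and SSR2 (TRAP subunits), SPCS1 and SPCS2 (signal peptidase subunits) and the COPII coat proteins SEC24D and SEC23B were not called with LPS in any condition.

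Whether the LPS response differed between siRNA conditions was tested directly, as a difference of log2 fold changes. By edgeR none of the 35 genes passed for SCR against WT (0.234% of all genes called), KD against SCR (0%) or KD against WT (0.360%). DESeq2 called 0 of the 35 in each. At an unadjusted edgeR p under 0.05 were 3, 1 and 13 of the 35 genes, beside 1661, 1274 and 2593 of the 16678 genes tested. The genes with the smallest p in KD against WT were SEC61G (difference 1.19, 95% interval 0.51 to 1.88, edgeR adjusted p = 0.127), ERO1A (0.64, 0.21 to 1.07, edgeR adjusted p = 0.174) and HYOU1 (−0.46, −0.78 to −0.15, edgeR adjusted p = 0.175), which are named after their values were seen. So a call in one condition and not in another, as for HYOU1 or HSP90B1, is not shown to be a difference between conditions. Without KD unstimulated replicate 1, 11 of the 35 genes passed in KD against WT, beside 7.64% of all genes in that fit.

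The second question was how the siRNA conditions differed within each state. The 3 comparisons of a state share their groups pairwise, so they are not independent of each other. In unstimulated cells SCR and KD both differed from WT in EDEM3, and no gene of the 35 passed between KD and SCR. In SCR against WT, 1 of 35 genes was called (3.23% of all genes): EDEM3, at 80.0, 86.1 and 82.4 CPM in SCR against 131, 110 and 109 CPM in WT (−0.50 ± 0.13, edgeR adjusted p = 0.0342). EDEM3 was among 9 of the 35 genes whose libraries did not overlap (22.6% of all genes). The EDEM3 call was made in just 1 of the 6 fits without 1 library, that without WT unstimulated replicate 2 (edgeR adjusted p from 0.0609 to 0.147 in the others).

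In unstimulated KD against WT, 1 of 35 genes was higher and 2 were lower, beside 11.7% of all genes called (5.85% higher and 5.85% lower). EDEM3 was at 85.8, 65.0 and 82.9 CPM in KD (−0.59 ± 0.13, edgeR adjusted p = 0.00496). PDIA6 (P5), a disulphide isomerase, was at 836, 764 and 790 CPM in KD against 999, 978 and 984 CPM in WT (−0.31 ± 0.08, edgeR adjusted p = 0.0107). HYOU1 was at 397, 466 and 510 CPM against 299.9, 388 and 343 CPM (0.41 ± 0.11, edgeR adjusted p = 0.0152). For all 3 genes, and for 6 of the 35 (24.3% of all genes), the libraries did not overlap. None of the calls held with only the groups compared in the fit (edgeR adjusted p = 0.0710, 0.159 and 0.111), and that of HYOU1 was also lost without WT unstimulated replicate 1 (0.0896), WT unstimulated replicate 3 (0.0561) or KD unstimulated replicate 3 (0.0809). In KD against SCR none of the 35 was called by edgeR (0.066% of all genes called) or DESeq2 (1.8%). At an unadjusted edgeR p under 0.05 was 1 of the 35, beside 2107 of the 16678 genes tested. The libraries did not overlap for 4 of the 35 (15.1% of all genes).

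With LPS, more of the genes were called between KD and WT than in any other siRNA comparison. Of the 35 genes 10 were higher and 1 was lower in KD, 31.4% called beside 10.8% of all genes (6.29% higher and 4.55% lower), and the libraries of the groups did not overlap for 20 genes (57.1%, beside 35% of all genes). The sensors ERN1 and ATF6, the ERAD genes EDEM1 and HERPUD1, the cochaperone DNAJB9, the channel subunits SEC61G and SEC61B, ERO1A, SPCS2 and SEC24D were higher, and HSPA5 was lower. The median over the 35 genes was 0.09, against 0.00 over all genes. With LPS no gene of the 35 passed in KD against SCR (0% of all genes called by edgeR) or in SCR against WT (0.114%). At an unadjusted edgeR p under 0.05 were 8 and 7 of the 35, beside 1963 and 2285 of the 16678 genes tested. DESeq2 called 1 of the 35 in KD against SCR, SEC24D, beside 1.28% of all genes with an adjusted p. In SCR against WT it called 0, beside 2.47%. In each comparison 10 of the 35 did not overlap, beside 21.5% and 22.8% of all genes. The differences between KD and WT are therefore not shown to be particular to the TRAFD1 siRNA. Same-numbered libraries of SCR and WT with LPS deviated together, for a reason that was not tested. With the replicate as a block 1 of the 35 was called there, HSP90B1, beside 0.809% of all genes.

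**Figure D3:**
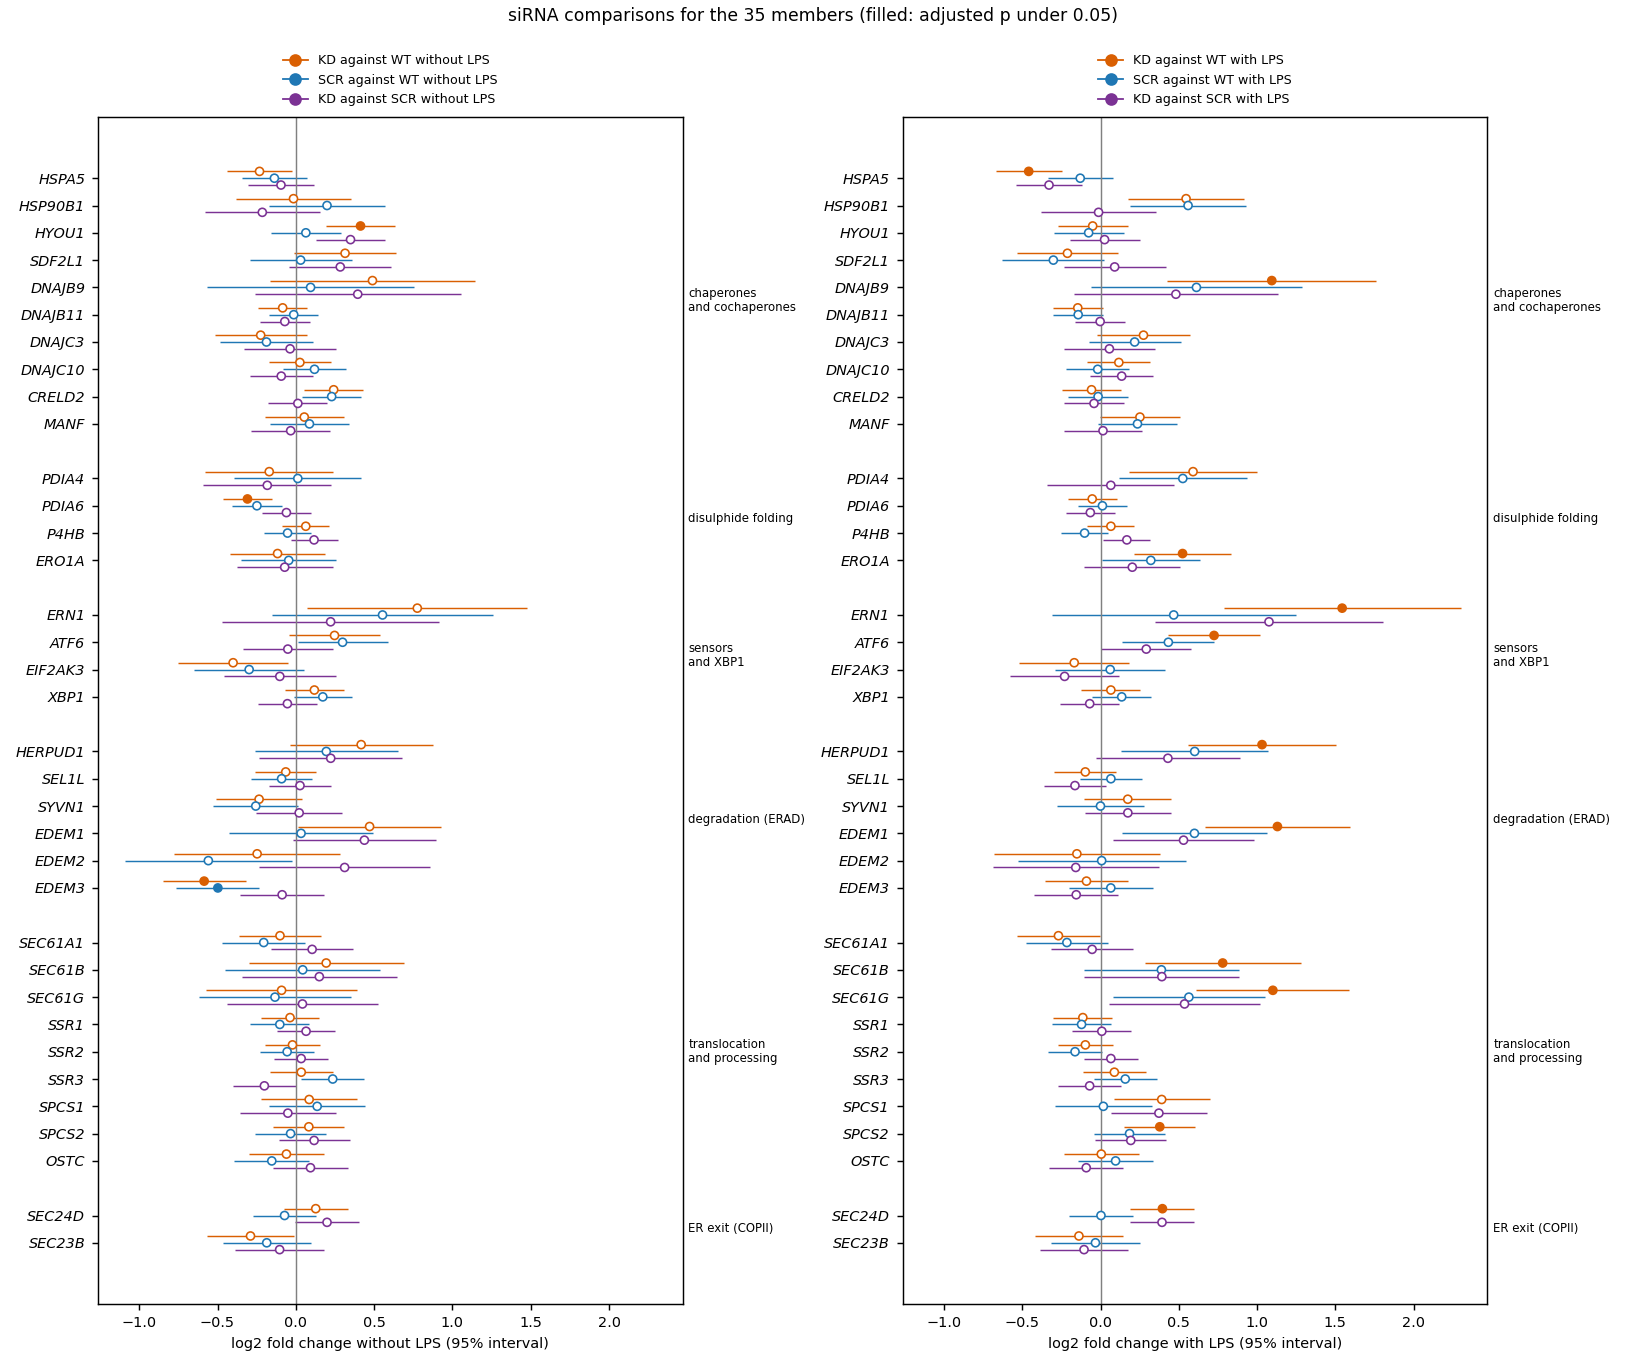
Log2 fold changes (x axis, points with 95% intervals) of the 35 genes (y axis, grouped by role) between siRNA conditions without LPS (left) and with LPS (right), filled where the edgeR adjusted p was under 0.05. With LPS 11 points of KD against WT (orange) are filled, 10 of them right of 0, while none of KD against SCR (purple) or SCR against WT (blue) is.

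ERN1 was at 20.7, 24.8 and 17.7 CPM in KD with LPS and at 7.20, 6.60 and 7.93 CPM in WT with LPS, a level 2.91 times that of WT (1.54 ± 0.36, edgeR adjusted p = 0.0114). The groups did not overlap, and the SCR libraries, at 6.30, 16.7 and 6.45 CPM, spanned from the WT level almost to the KD level. The call was lost without KD LPS replicate 5 (edgeR adjusted p = 0.0528). ATF6 was at 61.2, 70 and 71.6 CPM in KD against 43.4, 42.2 and 37.1 CPM in WT (0.72 ± 0.14, edgeR adjusted p = 0.00386), also without overlap. SCR was between, at 61.3, 56.9 and 47.8 CPM.

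EDEM1 was at 61.3, 76.9 and 55.9 CPM in KD against 31.7, 32.9 and 24.1 CPM in WT (1.13 ± 0.22, edgeR adjusted p = 0.00434), with SCR at 39.7, 61.9 and 32.7 CPM. HERPUD1 was at 105, 112 and 92.1 CPM in KD against 50.1, 55.6 and 45.4 CPM in WT (1.03 ± 0.23, edgeR adjusted p = 0.00802), with SCR at 74.8, 100 and 54.1 CPM. In both genes KD and WT did not overlap and SCR replicate 5 reached the KD range. The HERPUD1 call was lost without WT LPS replicate 6 (edgeR adjusted p = 0.0510).

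SEC61G was at 310, 352 and 257 CPM in KD against 181, 157 and 89.7 CPM in WT (1.10 ± 0.23, edgeR adjusted p = 0.00712). SEC24D, a cargo adaptor of the COPII coat, was at 100, 92.0 and 102 CPM against 81.1, 76.0 and 66.9 CPM (0.40 ± 0.10, edgeR adjusted p = 0.0148). Neither overlapped. The SEC24D call was lost without WT LPS replicate 6 (edgeR adjusted p = 0.112), without KD LPS replicate 6 (0.0542) and with a correction for GC content (0.119), whereas that of SEC61G held in all of these.

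The remaining 4 calls, ERO1A, SPCS2, DNAJB9 and SEC61B, had larger adjusted p-values and are given to complete the 10 after their values were seen. ERO1A, the oxidase that recharges disulphide isomerases, was at 30.8, 37.0 and 36.0 CPM in KD against 22.2, 26.4 and 23.6 CPM in WT (0.52 ± 0.15, edgeR adjusted p = 0.0279). DNAJB9 was at 36.3, 38.4 and 32.5 against 17.1, 22.9 and 9.99 CPM (1.09 ± 0.32, edgeR adjusted p = 0.0330). SEC61B was at 305, 312 and 284 against 204, 196 and 125 CPM (0.78 ± 0.24, edgeR adjusted p = 0.0403). In each, KD lay above WT without overlap. SPCS2 was at 193, 199.8 and 184 against 158, 156 and 130 CPM (0.38 ± 0.11, edgeR adjusted p = 0.0302), and 4 of its pseudogenes held 84.3% as many counts as the gene, so its counts may be split. These 4 calls depended on single libraries. SEC61B was lost in all 6 fits that left out 1 library (edgeR adjusted p from 0.0503 to 0.213) and with DESeq2 (0.0536), and DNAJB9 in 5, all but that without WT LPS replicate 5 (0.0560 to 0.182). ERO1A was lost in 4, all but those without WT LPS replicate 5 or KD LPS replicate 4 (0.0813 to 0.113), and SPCS2 in 4, all but those without WT LPS replicate 4 or 5 (0.0514 to 0.181). Without WT LPS replicate 6, 4 of the 35 genes passed in place of 11, and 2.18% of all genes in place of 10.8%.

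HSPA5 went the other way. It was at 1901, 1789 and 1945 CPM in KD with LPS against 2622, 2456 and 2666 CPM in WT with LPS (−0.46 ± 0.10, edgeR adjusted p = 0.00802), a level 0.728 of that of WT, and every KD library lay below every WT library. The SCR libraries, at 2204, 2331 and 2543 CPM, lay above all of the KD libraries, but the difference from SCR did not pass the test (−0.33, 95% interval −0.54 to −0.12, edgeR adjusted p = 0.217). The call against WT was lost without WT LPS replicate 6 (edgeR adjusted p = 0.0510) or KD LPS replicate 5 (0.0503), with log2 fold changes of −0.44 and −0.43.

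Some libraries were the lowest or highest of their group for many of the genes. WT LPS replicate 6 was the lowest of its group for 23 of the 35 genes (39.1% of all genes tested), SCR LPS replicate 6 for 23 (32.7%) and KD unstimulated replicate 2 for 23 (35.4%), whereas SCR LPS replicate 5 was the highest for 21 (35.9%) and KD unstimulated replicate 1 for 19 (37.8%). Unstimulated KD spread widest: the highest of its libraries was more than 1.5 times the lowest for 10 of the 35 genes, against 0 in KD with LPS, although such ratios were common over all genes too (47.3% and 33.3%). In KD unstimulated replicate 1 HERPUD1 (209 CPM), ERN1 (40.8 CPM) and DNAJB9 (43.1 CPM) reached their highest levels of the 18 libraries, while HSPA5 (1720 CPM) was at its lowest.

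Some technical measures moved with these libraries and groups. The slope of a library's level on the GC content of the last 500 transcript bases, taken as those at the 3′ end, in log2 units per 10% GC, was −0.08 to −0.03 in KD with LPS and 0.01 to 0.06 in WT with LPS. In SCR with LPS it was −0.077 to −0.006, which overlapped KD with LPS. KD unstimulated replicate 1, at −0.06, had the opposite sign to replicates 2 and 3, at 0.10 and 0.09. WT unstimulated replicate 1, at −0.086, also had the opposite sign to its replicates 2 and 3, at 0.065 and 0.028. The median GC content of these last 500 bases was 37.8% in the 35 genes and 42.9% over 16235 genes with a value. After a correction for GC content 12 of the 35 genes were called in KD against WT with LPS, 11 of them higher, beside 11.6% of all genes. The mitochondrial share of counts was 3.19% to 3.37% in unstimulated WT and 3.82% to 4.45% in WT with LPS, and 3.28% to 3.47% in unstimulated SCR and 3.72% to 5.20% in SCR with LPS, without overlap in either. In KD it was 3.87% to 4.86% without LPS, above all unstimulated WT and SCR libraries, and 4.28% to 5.14% with LPS. The part of this share in the results was not tested.

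**Figure D4:**
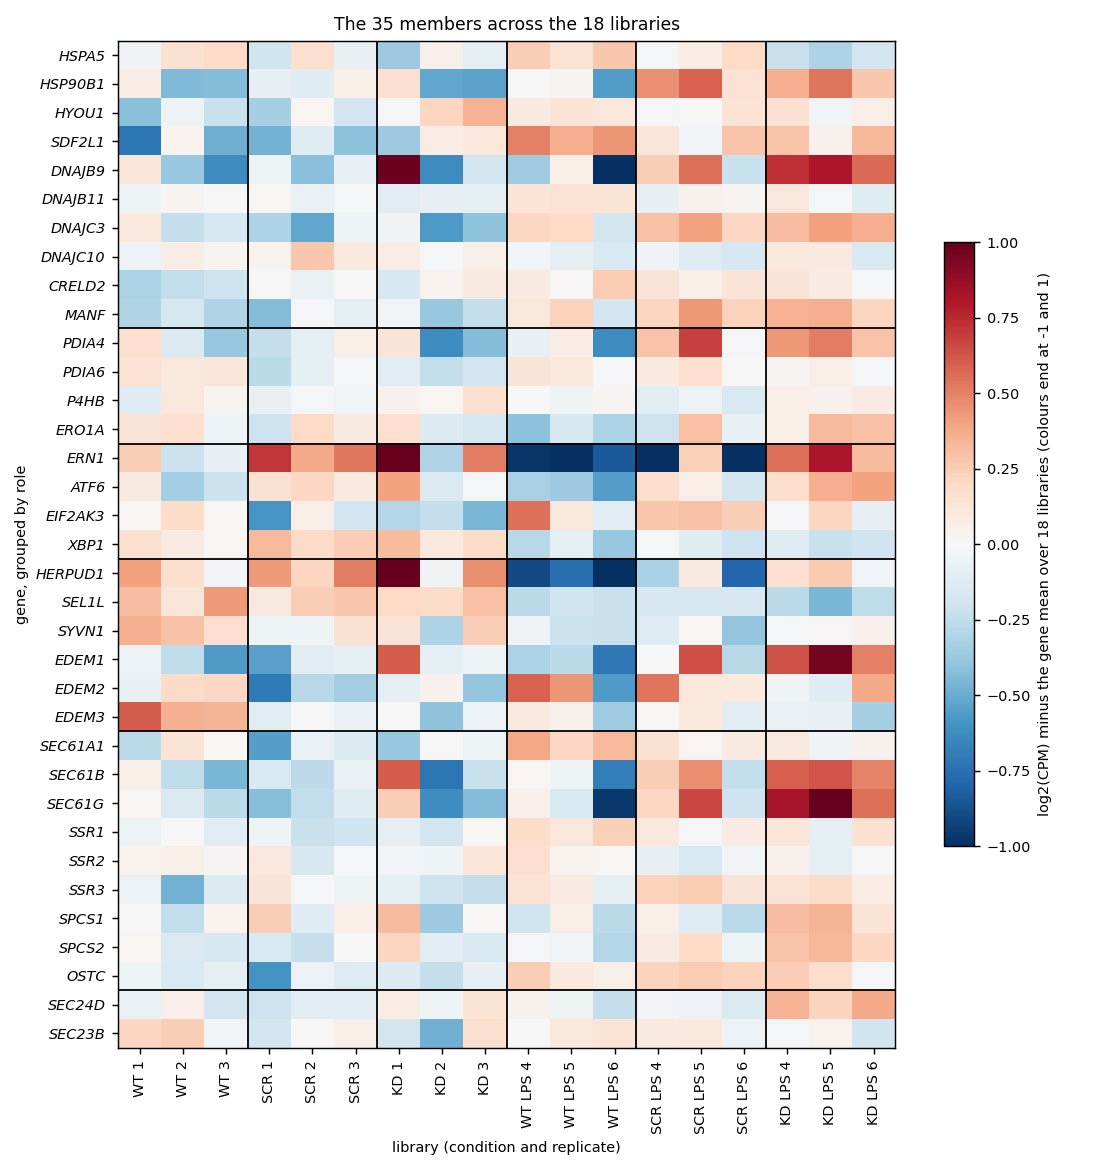
Log2 CPM minus each gene's mean over the 18 libraries (colour, limited to −1 to 1) for the 35 genes (rows, by role) in each library (columns, by condition and replicate, lines between groups). Shades differ between replicates of a group for several genes: dark red in KD unstimulated replicate 1 for DNAJB9, ERN1 and HERPUD1, and dark blue in WT LPS replicate 6 for DNAJB9 and SEC61G.

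Other genes of the same pathways were counted from lists by role, 66 of 68 of which were tested. The list of the PERK branch and of stress-induced factors had the largest median change with LPS among the lists. Of 7 genes, 1 rose and 5 fell in WT, and 5 fell in SCR and in KD. Over all genes 14.3%, 17.2% and 11.5% were called in WT, SCR and KD. The medians of the list were −1.18, −1.11 and −1.46. ATF4, the transcription factor translated when PERK is active, fell by 1.41 on the log2 scale in WT (SE 0.10, edgeR adjusted p = 7.05e-10), by 1.64 in SCR and by 1.46 in KD. SESN2, a stress-induced sestrin, fell by 1.99 in WT (SE 0.14, edgeR adjusted p = 9.91e-10), TRIB3, a pseudokinase induced by ATF4, by 1.47 (SE 0.14, edgeR adjusted p = 1.63e-07) and DDIT3, which encodes CHOP, by 1.18 (SE 0.13, edgeR adjusted p = 1.19e-06). All 4 fell in SCR and KD too. Many of these genes are known targets of ATF4 under amino acid shortage as well as under ER stress.

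The remaining lists had smaller shares of calls, to be read beside the 14.3%, 17.2% and 11.5% of all genes called with LPS in WT, SCR and KD. In WT, SCR and KD, 3, 7 and 1 of 14 other folding genes rose and 0, 1 and 1 fell. In WT the risers were FKBP2 (0.44), an ER peptidyl-prolyl isomerase, SIL1 (0.49), an exchange factor of HSPA5, and the ER DnaJ protein DNAJC1 (0.30). Of 14 other ERAD genes 1 rose in each condition, in WT the ubiquitin-conjugating enzyme UBE2G2 (0.27). Of 17 other genes of the translocon, oligosaccharyltransferase and signal peptidase 1, 2 and 3 rose and 0, 1 and 0 fell, SRPRB (0.40 in WT), a subunit of the signal recognition particle receptor, among those that rose. Of 8 other COPII genes 1, 2 and 1 rose, in WT the GTPase SAR1A (0.34), and of 6 other regulators 1 rose in each condition and 2, 1 and 0 fell. CREB3, an ER-bound transcription factor, rose in WT (0.67), while CREB3L2 (−0.40), its relative, and MBTPS1 (−0.34), the protease that cuts ATF6, fell there. In KD against WT with LPS 8 of the 66 were higher and 3 lower, beside 10.8% of all genes called (6.29% higher and 4.55% lower). None of the PERK list was called there. In unstimulated cells, 4 of the 7 genes of the PERK list were higher in KD than in WT (11.7% of all genes called): the stress-induced transcription factor ATF3 (0.98 ± 0.17, edgeR adjusted p = 0.000723), DDIT3 (0.60 ± 0.13, 0.00411), TRIB3 (0.59 ± 0.14, 0.00823) and PPP1R15A (GADD34), a phosphatase subunit that counters PERK (0.52 ± 0.14, 0.0220). ATF3 (1.13 ± 0.16, edgeR adjusted p = 0.000493) and TRIB3 (0.67 ± 0.14, 0.00986) were also higher in SCR than in WT (3.23% of all genes called), and none of the list passed in KD against SCR.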

How the data were processed

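RNA of 18 THP-1 libraries was prepared with a 3′ tag kit and sequenced. Per the submitters' notes the authors aligned reads with HISAT to GRCh37 and counted them per gene with featureCounts. The study's methods limit the counted annotation to 500 bases per gene but call them both last and 5′, so the 3′ end, which the kit reads, is an assumption here. Whether strand was used in counting is not given in the sources used here. The deposited values are raw counts per gene, of which 34092 of 63677 genes had any. The 35 genes and the other lists were chosen with earlier results of these data known.

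Counts were analysed with edgeR 4.0.16 in R 4.3.3 (TMM scaling, filterByExpr, 6 group means, quasi-likelihood F test) over 16678 genes, with Benjamini-Hochberg adjustment over all genes in each of 12 comparisons and a threshold of 0.05. Intervals of fold changes are 95%, and floors of 3 counts cover counting error only. The script was tested on simulated data for KD against SCR with LPS, with changed genes of at least 10 CPM counted. Of 50 genes with a log2 change of 1, 78.0% were called, and of 48 with a change of 0.5, 2.08%. Small changes could thus be missed. Values are given for 10 core genes in the LPS responses and for the up to 6 called genes with the lowest adjusted p in either direction of each comparison. They are also given for up to 4 of each other list, ordered by adjusted p in WT. For some core genes library levels or fold changes are left out in some conditions. Genes of the other lists outside the PERK list have the log2 fold change only. Alternatives were other size factors, DESeq2 1.42.0, no filter, only the groups compared, a replicate block, leaving out each library and, added after seeing the data, a GC correction. Same-numbered libraries deviated together in SCR and WT with LPS (correlations of 0.261, 0.163 and 0.253 for replicates 4, 5 and 6), and in no other comparison did every pair exceed 0.1. The highest single value was 0.304, for replicate 1 of KD and WT without LPS, whose replicates 2 and 3 gave 0.0039 and 0.049. LPS and unstimulated groups share no numbers.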

Additional observations from a re-analysis of the deposited data

How the results depend on the processing

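All 40 calls of single genes kept their direction under every alternative run. Of these, 32 kept the call under every alternative other than leaving out a library, 17 under every fit that left out 1 library, and 15 under both. Of the 69 other recounts of the genes called, 53 stayed within 1.5 times the count reported, and counts of 0 that stayed 0 are included in these. For the rest, without the filter on low counts 14 genes were called in the LPS response of SCR (8.59% of all genes in that fit). It called 6 in KD against WT without LPS (5.96%), and with LPS 7 in SCR against WT (1.74%) and 5 in KD against SCR (1.25%). For the differences in LPS response it gave 1 for SCR against WT (0.707%) and 7 for KD against WT (2.14%). With only the groups compared in the fit, 0 were called in KD against WT without LPS (1.81%). In KD against SCR with LPS that fit called 1, HSPA5 (1.05%). DESeq2 called 2 in SCR against WT without LPS (6.61%) and 1 in KD against SCR with LPS (1.28%). With the replicate block and without LPS, 2 were called in SCR against WT (5.6%), 1 in KD against SCR (1.1%) and 5 in KD against WT (14.5%). With LPS that fit called 1 in SCR against WT (0.809%) and 1 in KD against SCR (0.51%). For the difference in LPS response of KD against WT it called 5 (3.28%). Outside SCR and WT with LPS no comparison had all same-numbered libraries deviating together, although replicate 1 of KD and WT without LPS did (correlation of 0.304). The cause of these shifts was not tested.

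Leaving out each library in turn gave 4 to 7 calls in the LPS response of WT, beside 9.72% to 12.1% of all genes. There were 5 without WT unstimulated replicate 1 (10.7%) and 4 without WT LPS replicate 6 (10.2%). In SCR 4 to 8 were called, beside 10.3% to 13.8%. SCR gave 4 without unstimulated replicate 1 (10.9%) and 5 without LPS replicate 4 or 6 (10.3% and 12.2%). In KD 5 to 15 were called, beside 6.37% to 18.3%. KD gave 15 without unstimulated replicate 1 (18.3%) and 5 without unstimulated replicate 3 (6.64%) or LPS replicate 5 (6.37%). The range was 0 to 1 for SCR against WT without LPS (1 in the fit without WT unstimulated replicate 2), 2 to 6 for KD against WT without LPS (6 without KD unstimulated replicate 2) and 4 to 12 for KD against WT with LPS (4 without WT LPS replicate 6, 5 and 6 without KD LPS replicates 5 and 6). Each of these fits called a smaller share of all genes than the 3.23%, 11.7% and 10.8% with all libraries. For KD against WT with LPS the smallest share, 2.18%, was in the fit with 4 calls, and the largest in that with 12. For KD against WT without LPS the fit with 6 calls did not have the largest share. The difference in LPS response of KD against WT gave 0 to 11, beside 0.122% to 7.64% (11 without KD unstimulated replicate 1, 7.64%). The other comparisons gave 0 to 0, beside at most 0.527% of all genes. Signs of 4 uncalled changes turned. DNAJB9 in WT ranged from −0.43 to 0.14 (0.12 without WT unstimulated replicate 1, 0.14 without WT LPS replicate 6), EIF2AK3 in WT from −0.064 (without WT LPS replicate 4) to 0.28, HSP90B1 in WT from −0.0029 (without WT LPS replicate 5) to 0.28, and ERN1 in KD from −0.53 to 0.41 (without KD unstimulated replicate 1).

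With 3 libraries a group, changes of some genes were poorly resolved: the 95% interval of the LPS response of DNAJB9 in WT ran from −0.80 to 0.55.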
